A study of Homo sapiens with 12 samples.

Results

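The NF-kB subunits and feedback targets are 10 genes of the 25733 in the deposited expression table, where they were found by symbol. NFKB1, NFKB2, RELA and RELB, 4 genes, encode subunits of the transcription factor NF-kB. NFKBIA, TNFAIP3, BIRC3, ICAM1, TNFAIP2 and IER3, 6 genes, are widely described as targets of NF-kB, and several of them encode proteins that act back on the pathway. NF-kB dimers are held in the cytoplasm by inhibitor proteins of the IkB family until a signal through the IKK kinases leads to the loss of the inhibitor. In the nucleus the dimers switch on genes for cytokines, adhesion molecules and survival factors, and also genes for their own inhibitors, which limit the response by negative feedback. In epithelial cells of the colon and in cancers that arise from them, the pathway is known for its place in inflammation and cell survival.

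HCT116 cells, a line from a human colon carcinoma, were sequenced as bulk total RNA in 4 groups of 3 libraries numbered 1 to 3. Control cells had no treatment by their labels and by the paper's section on RNA sequencing, while its section on cell culture names a vehicle control. NH4Cl-treated cells had 10 mM NH4Cl, a source of ammonia, for 24 h. TGF-β-treated cells had 200 pM of this cytokine for 1 h, after 23 h in vehicle. Cells with both had 10 mM NH4Cl for 23 h and then 200 pM TGF-β for 1 h. The comparisons ask what NH4Cl does to these genes with and without TGF-β, and what TGF-β does with and without NH4Cl.

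Levels are FPKM, fragments per kilobase of gene scaled to the size of the library, and differences are on the scale of log2(FPKM + 1), which makes fold changes of genes with low FPKM look smaller. Reads on genes, recovered from the deposited values, gene lengths and a scale factor fitted for each library, numbered 15298508 to 16700597 in the control libraries and 14830829 to 18191998 in the TGF-β libraries. They numbered 14931020 to 15880031 in the NH4Cl libraries and 14807630 to 17620222 in those with both. The members had between 302 reads (ICAM1) and 4575 reads (TNFAIP2) in a library, and all 10 passed the filter of a mean FPKM of at least 1 that left 12341 genes for testing.

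The epithelial label was checked against markers, whose levels were not all the same with and without NH4Cl. All 6 epithelial markers (EPCAM, CDH1, KRT8, KRT18, KRT19 and VIL1) had a mean FPKM of at least 1, and their sum was 2267 to 3410 FPKM per library, with KRT18 highest at 876 FPKM. With NH4Cl, EPCAM was higher and KRT19 and CDH1 were lower in 6 of 6 pairs, KRT19 with a mean of 621.1 FPKM in control cells and 471.5 FPKM with NH4Cl. Of 5 leukocyte markers, 3 were in the table and 0 had a mean FPKM of at least 1, with a sum of 0.289 to 1.13 FPKM and CD14 highest at 0.608 FPKM. Of 3 endothelial markers, VWF alone passed, at 3.01 FPKM, in a sum of 1.56 to 6.84, and PECAM1 had a mean under 0.05 FPKM over the 12 libraries. VWF had a mean of 2.37 FPKM in control cells, 3.63 with NH4Cl, 2.29 with TGF-β and 3.77 with both, and was higher with NH4Cl in 6 of 6 pairs of libraries with the same number. CDH5, with a mean of 0.211 FPKM in control cells and 0.183 FPKM with NH4Cl, was lower in 4 of 6 pairs. PECAM1, with 1 to 12 reads in a library, was higher in 5 of 6. Of 4 fibroblast markers, COL1A1 alone passed, at 1.68 FPKM, in a sum of 1.29 to 2.97, and COL1A2 and DCN were under 0.05 FPKM. COL1A1 was higher with NH4Cl in 5 of 6 pairs and PDGFRB, with a mean of 0.158 FPKM in control cells and 0.236 FPKM with NH4Cl, in 6 of 6. PDGFRB had 7 to 35 reads in a library. Of all tested genes, 15.7% were higher and 15.5% lower with NH4Cl in all 6 pairs.

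Replicate 3 of every group stood apart from replicates 1 and 2. Its share of reads on mitochondrial genes was 4.50% to 5.12%, against 2.46% to 3.18% in replicates 1 and 2. The mean log2 level in replicate 3 minus that in replicates 1 and 2 was -0.70 for NFKBIA, -0.53 for TNFAIP3, -0.32 for NFKB1, -0.32 for TNFAIP2 and -0.29 for BIRC3. It was 0.42 for IER3, 0.28 for RELA and 0.27 for NFKB2. Over all tested genes the median of this difference was -0.01 and 7.58% of genes exceeded 0.5 in size. For this reason each test is given from a limma model of the 4 group means and from a model that adds the replicate number as a block. The part of replicate 3 in the results was not tested beyond the values given with the block and within replicate numbers.

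In control cells the members covered a wide range of levels. IER3 had the highest mean, 145.5 ± 19.9 FPKM (SD, n = 3), and its control libraries did not overlap with those of any other member. TNFAIP2 (44.84 ± 6.998 FPKM), NFKBIA (40.5 ± 12.1 FPKM) and NFKB2 (40.0 ± 4.71 FPKM) came next and overlapped among themselves, and NFKBIA, at 26.53 to 47.67 FPKM, also overlapped with RELB and TNFAIP3. RELB (27.8 ± 2.14 FPKM), TNFAIP3 (23.4 ± 5.78 FPKM), RELA (21.7 ± 2.82 FPKM) and BIRC3 (19.3 ± 3.49 FPKM) followed, each overlapping with the next. NFKB1 (11 ± 1.59 FPKM) and ICAM1 (6.08 ± 0.522 FPKM) were lowest, and each was apart from the neighbour above it.

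**Figure D1:**
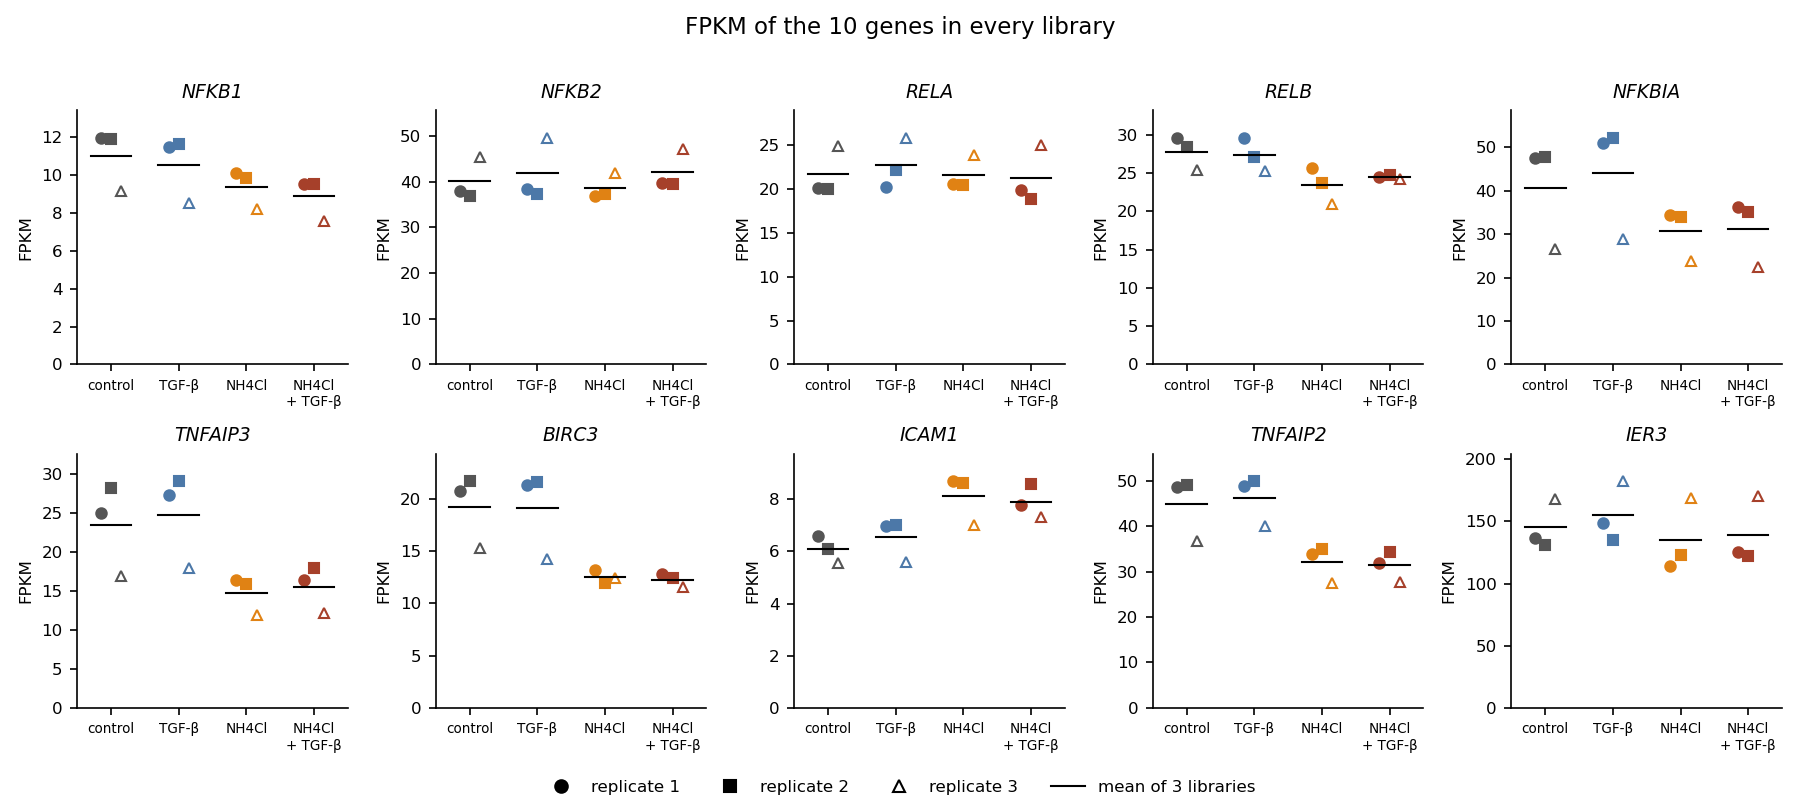
FPKM of each of the 10 genes (vertical axes, from 0) in the 12 libraries, by group (horizontal axis), with the replicate number as the symbol and the group mean as a line. In TNFAIP3, BIRC3 and TNFAIP2 every NH4Cl library lies under every control library and every library with both under every TGF-β library, in ICAM1 above, and the replicate 3 symbols sit low in NFKBIA and high in IER3.

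With NH4Cl the feedback genes (NFKBIA, TNFAIP3 and BIRC3) and TNFAIP2 were lower, the adhesion gene ICAM1 was higher, and the subunits and IER3 had smaller estimates. BIRC3, TNFAIP3 and TNFAIP2 fell and ICAM1 rose with NH4Cl averaged over TGF-β, the mean of the NH4Cl effect without and with TGF-β (6 libraries against 6). In the limma model without the block this made 4 of the 10 genes at an adjusted p-value under 0.05, against 6.14% of all tested genes. Of these, 3 were lower, against 2.40% of all genes, and 1 was higher, against 3.74%. With the block, 8 genes passed, against 31.0% of all genes, 7 of them lower (15.0% of all genes) and 1 higher (16.1%). The genes added by the block were NFKBIA, NFKB1, RELB and IER3, and NFKB2 and RELA passed under neither model. In bulk RNA, fewer cells of a type and less RNA per cell cannot be told apart.

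The count without the block depended on the processing. It was 0 with every library scaled to the same FPKM sum (3.96% of all genes in limma), and 2 (BIRC3 and TNFAIP2) with median centring (5.76%) or with no filter on low values (2.14%). Leaving out replicate 1 or 2 of any group also gave 2, the same 2 genes, and leaving out replicate 3 of any group gave 3, against 2.79% to 7.31% of all genes over these 12 fits. With the block, leaving out 1 library gave 8, except 7 without replicate 1 of the control cells, where IER3 had an adjusted p-value of 0.0512, against 24.7% to 28.8% of all genes. In replicates 1 and 2 only, 8 genes passed, against 26.6% of all genes, and also 8 with the block, against 26.0%, a setting chosen after seeing the data.

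**Figure D2:**
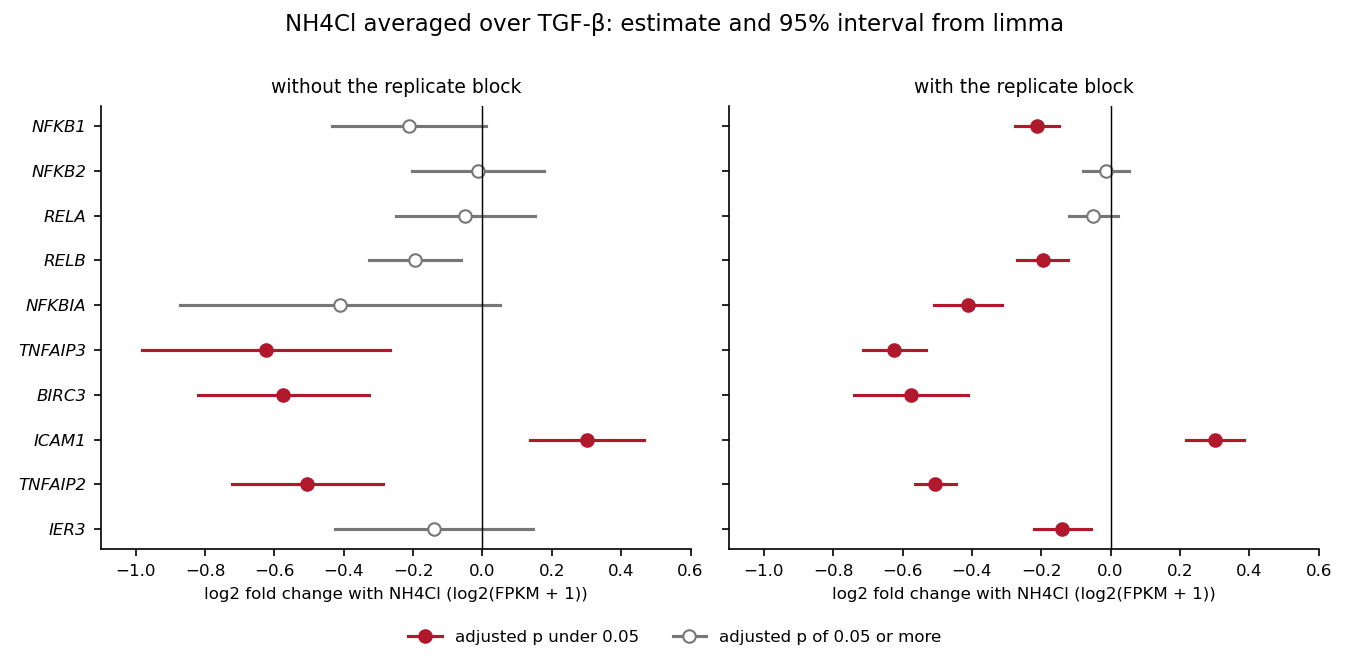
Log2 fold change of each gene with NH4Cl averaged over TGF-β (horizontal axis, on log2(FPKM + 1)), with its 95% confidence interval from limma, without the replicate block on the left and with it on the right; filled red points have an adjusted p-value under 0.05. The estimates are the same in both panels and the intervals are narrower with the block, so that 4 points are filled on the left and 8 on the right.

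The replicates are not stated to be separate cultures, so the p-values measure only the spread between these libraries. The NH4Cl comparison without TGF-β and the one with it rest on separate libraries, while each comparison against control uses the same control libraries.

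Promoters are shown for members that the results turn on. RefSeq promoters (GRCh38.p14) were matched for 8 of the 10 genes, RELB and IER3 being the others, with 12 start sites in all. The 250 bases before each start were searched on both strands for the kappaB consensus, the 10-base sequence that NF-kB dimers are known to bind. A match was found for 5 of the 8 genes and for 6 of the 12 start sites, and in 5.21% of all 35116 promoters searched the same way. On the forward strand alone a match was found for 2 of the 8 genes, NFKB1 and NFKB2, and in 3.17% of all promoters. The shares of all promoters are counted by start site and not by gene, and a gene can have several. RELA, TNFAIP2 and ICAM1 held no match in this window. Positions are counted back from the RefSeq start, and the printed stretches of NFKB1, BIRC3 and TNFAIP2 stop before it, at the GENCODE start of the gene. A match describes the letters and was not read as a bound site.

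The subunits were NFKB1, NFKB2, RELA and RELB. NFKB1 (ENSG00000109320; GRCh38 chromosome 4, 102501329 to 102617302, plus strand) encodes a precursor whose processed form is a DNA-binding subunit without an activation domain of its own. Its promoter is shown because NFKB1 was the subunit with the largest estimate with NH4Cl averaged over TGF-β and a subunit gene with a kappaB match, in capitals, at bases -49 to -40 from the RefSeq start (chr4:102501109-102501328, plus strand).
NFKB1: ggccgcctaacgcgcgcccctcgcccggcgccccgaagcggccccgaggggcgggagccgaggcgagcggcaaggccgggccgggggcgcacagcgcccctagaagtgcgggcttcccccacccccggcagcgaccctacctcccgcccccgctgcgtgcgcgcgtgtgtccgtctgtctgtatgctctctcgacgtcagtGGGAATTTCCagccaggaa

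NFKB1 had 11.96, 11.87 and 9.16 FPKM in replicates 1, 2 and 3 of the control cells and 10.1, 9.85 and 8.17 FPKM in those of the NH4Cl-treated cells. It had 11.5, 11.6 and 8.52 FPKM with TGF-β and 9.53, 9.52 and 7.56 FPKM with both. The groups overlapped because replicate 3 was lowest in each, yet the library with NH4Cl was lower in 6 of 6 pairs with the same number. The log2 fold change with NH4Cl averaged over TGF-β was -0.21 (standard error 0.1004, limma adjusted p = 0.258). The standard error under the block was 0.0284 (limma adjusted p = 0.000493; 0.000347 to 0.00269 over the alternatives with the block). RELB (ENSG00000104856; chromosome 19, 45001430 to 45038198, plus strand) encodes the subunit that pairs mainly with the processed NFKB2 product. It had 29.6, 28.4 and 25.4 FPKM in the control cells and 25.7, 23.6 and 20.9 FPKM with NH4Cl, where the groups overlapped by 1 library. It had 29.6, 27.1 and 25.3 FPKM with TGF-β and 24.5, 24.8 and 24.2 FPKM with both, without overlap. Its log2 fold change was -0.20 and it was lower in 6 of 6 pairs (limma adjusted p = 0.0879 without the block and 0.00186 with it; 0.000894 to 0.00748 over the alternatives with the block).

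RELA and NFKB2 passed under neither model. RELA (ENSG00000173039; chromosome 11, 65653596 to 65663094, minus strand) encodes the main activating subunit and NFKB2 (ENSG00000077150; chromosome 10, 102394110 to 102402529, plus strand) the precursor of the second pathway, which is processed on signals through MAP3K14. RELA had 21.7 ± 2.82 FPKM (SD, n = 3) without treatment, 21.6 ± 1.90 after NH4Cl, 22.8 ± 2.85 after TGF-β and 21.2 ± 3.30 after both. The RELA log2 fold change with NH4Cl averaged over TGF-β was -0.05, with a 95% confidence interval of -0.25 to 0.15 without the block and -0.12 to 0.02 with it. NFKB2 had 40.0 ± 4.71 FPKM (SD, n = 3) without treatment, 38.7 ± 2.82 after NH4Cl, 41.8 ± 6.80 after TGF-β and 42.1 ± 4.38 after both. The NFKB2 log2 fold change was -0.01, with an interval of -0.20 to 0.18 without the block and -0.08 to 0.05 with it. With NH4Cl, RELA was lower in 4 of 6 pairs and NFKB2 in 3 of 6, and replicate 3 was the highest library of each group for both genes. On the opposite strand RELA shares 9 exon bases with AP001362.2, which had 1.53 FPKM, and whether reads were counted by strand is not stated.

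The feedback genes were NFKBIA, TNFAIP3 and BIRC3. NFKBIA (ENSG00000100906; chromosome 14, 35401511 to 35404749, minus strand) encodes the IkB protein that holds RELA dimers in the cytoplasm. TNFAIP3 (ENSG00000118503; chromosome 6, 137867188 to 137883312, plus strand) encodes a ubiquitin-editing enzyme that shuts off signalling to the IKK kinases. BIRC3 (ENSG00000023445; chromosome 11, 102317450 to 102339403, plus strand) encodes a ubiquitin ligase that acts at receptors of the tumor necrosis factor family and restrains MAP3K14. Their promoter stretches are shown because these are the textbook feedback genes and each held a kappaB match, in capitals, all on the reverse strand. The match of NFKBIA lies at bases -81 to -72 (chr14:35404750-35404999, minus strand). The matches of TNFAIP3 lie at -67 to -58 and -55 to -46, of which a stretch of 28 bases is shown (chr6:137867189-137867216, plus strand). This stretch lies before the RefSeq start but after the GENCODE start of TNFAIP3 given above, in a GENCODE exon of the gene. Those of BIRC3 lie at -199 to -190 and -135 to -126 (chr11:102317234-102317449, plus strand).
NFKBIA: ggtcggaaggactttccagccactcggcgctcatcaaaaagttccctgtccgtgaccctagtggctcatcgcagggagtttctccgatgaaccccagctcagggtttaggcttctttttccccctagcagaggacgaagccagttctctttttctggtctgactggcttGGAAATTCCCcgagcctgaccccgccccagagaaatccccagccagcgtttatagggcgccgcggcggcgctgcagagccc
TNFAIP3: tttGGAAAGTCCCgtGGAAATCCCCggg
BIRC3: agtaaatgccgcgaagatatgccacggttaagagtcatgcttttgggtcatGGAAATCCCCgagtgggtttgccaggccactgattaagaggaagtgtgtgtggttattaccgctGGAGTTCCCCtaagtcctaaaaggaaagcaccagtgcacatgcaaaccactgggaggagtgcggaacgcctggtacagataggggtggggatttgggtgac

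TNFAIP3 had the largest estimate of the members with NH4Cl averaged over TGF-β, whereas in replicates 1 and 2 only, and with both treatments against control, that of BIRC3 was larger. It had 25.03, 28.16 and 16.9 FPKM in replicates 1, 2 and 3 of the control cells and 16.4, 15.9 and 11.9 FPKM in those of the NH4Cl-treated cells. TGF-β alone gave 27.3, 29.1 and 17.9 FPKM, and with both 16.3, 17.9 and 12.2 FPKM. Replicate 3 was lowest in each group, and the libraries with NH4Cl lay below those they are compared with, by little where replicate 3 with TGF-β (17.91 FPKM) met replicate 2 with both (17.88 FPKM). Averaged over TGF-β, the log2 fold change was -0.62 (standard error 0.161, limma adjusted p = 0.0478) and TNFAIP3 was lower in 6 of 6 pairs. With the block the standard error was 0.0407 (limma adjusted p = 1.18e-05; 9.59e-06 to 0.000273 over the alternatives with the block). Over all 36 alternatives to the model without the block, the adjusted p-value reached 0.137, and 22 of them had TNFAIP3 under the threshold. Among the 19 of these that had no block, 5 had it under the threshold, while its log2 fold change stayed at -0.73 to -0.55. On the opposite strand TNFAIP3 shares 95 exon bases with AL357060.1 (0.545 FPKM).

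BIRC3 had the next largest averaged estimate and passed in 35 of the 36 alternatives, all but the scaling to the same FPKM sum (limma adjusted p = 0.0605, log2 fold change -0.57). It had 20.8, 21.8 and 15.3 FPKM in replicates 1, 2 and 3 of the control cells and 13.2, 11.9 and 12.4 FPKM in those with NH4Cl. With TGF-β the values were 21.4, 21.7 and 14.3 FPKM, and with both 12.8, 12.4 and 11.6 FPKM. The groups did not overlap, and replicate 3 stood low in the cells without NH4Cl but close to the other replicates in the cells with it. The log2 fold change averaged over TGF-β was -0.57 (standard error 0.111, limma adjusted p = 0.0156) and BIRC3 was lower in 6 of 6 pairs. With the block the limma adjusted p-value was 0.000394, with 0.000230 to 0.00183 over the alternatives with the block. Within replicates 1 and 2 the mean difference was -0.72, and within replicate 3 it was -0.28.

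NFKBIA, the gene of the best known feedback loop, passed only with the block or with replicate 3 of every group left out. It had 47.4, 47.7 and 26.5 FPKM in replicates 1, 2 and 3 of the control cells and 34.5, 34.0 and 23.8 FPKM in those with NH4Cl. With TGF-β the values were 51.0, 52.2 and 28.9 FPKM, and with both 36.2, 35.1 and 22.5 FPKM. The groups overlapped, since replicate 3 without NH4Cl lay below replicates 1 and 2 with it. Averaged over TGF-β, the log2 fold change was -0.41 (standard error 0.208, limma adjusted p = 0.294) and NFKBIA was lower in 6 of 6 pairs. With the block the standard error was 0.0441 (limma adjusted p = 0.000152; 5.41e-05 to 0.000831 over the alternatives with the block). Within replicates 1 and 2 the mean difference was -0.49 and within replicate 3 it was -0.25.

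The other targets were TNFAIP2, ICAM1 and IER3. TNFAIP2 (ENSG00000185215; chromosome 14, 103123442 to 103137439, plus strand) is a gene induced by tumor necrosis factor whose product is linked to membrane protrusions. Its promoter is shown as that of a member that fell and held no kappaB match in the window (chr14:103123211-103123441, plus strand).
TNFAIP2: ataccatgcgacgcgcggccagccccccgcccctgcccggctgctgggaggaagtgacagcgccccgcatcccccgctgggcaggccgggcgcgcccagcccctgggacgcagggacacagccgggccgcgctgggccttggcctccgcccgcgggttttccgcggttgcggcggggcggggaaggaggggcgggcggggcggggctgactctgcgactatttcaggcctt

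TNFAIP2 had the smallest adjusted p-value of the members with NH4Cl averaged over TGF-β and the block. It had 48.6, 49.1 and 36.8 FPKM in replicates 1, 2 and 3 of the control cells and 33.9, 35.0 and 27.5 FPKM in those with NH4Cl. With TGF-β it had 48.9, 50.03 and 40.1 FPKM, and with both 32.0, 34.4 and 27.7 FPKM. The groups did not overlap, and replicate 3 was lowest in each. The log2 fold change averaged over TGF-β was -0.51 (standard error 0.0985, limma adjusted p = 0.0158) and TNFAIP2 was lower in 6 of 6 pairs. With the block the limma adjusted p-value was 2.92e-06, with 2.60e-06 to 0.000199 over the alternatives with the block. It passed in 35 of the 36 alternatives, and scaling to the same FPKM sum gave 0.0896.

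ICAM1 (ENSG00000090339; chromosome 19, 10270835 to 10286615, plus strand), which encodes an adhesion molecule that leukocytes bind, was the member that rose. It had 6.60, 6.09 and 5.55 FPKM in replicates 1, 2 and 3 of the control cells and 8.70, 8.61 and 7.02 FPKM in those with NH4Cl. TGF-β alone gave 6.98, 7.02 and 5.61 FPKM, and with both 7.79, 8.60 and 7.33 FPKM. Each group with NH4Cl lay above the group it is compared with. Replicate 2 with TGF-β alone and replicate 3 with NH4Cl alone were both at 7.02 FPKM. Averaged over TGF-β, the log2 fold change was 0.30 (standard error 0.0740, limma adjusted p = 0.0390) and ICAM1 was higher in 6 of 6 pairs. With the block the limma adjusted p-value was 0.000330, with 0.000311 to 0.00554 over the alternatives with the block. Over all 36 alternatives 23 had ICAM1 under the threshold, with adjusted p-values up to 0.196. Among the 19 without the block, 6 had it under the threshold, while its log2 fold change stayed at 0.26 to 0.35. ICAM1 shares 815 exon bases on the opposite strand with AC011511.5 and 61 with AC011511.2, genes not in the table, so its level is uncertain to that extent.

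IER3 (ENSG00000137331; chromosome 6, 30743199 to 30744554, minus strand), an immediate early gene tied to cell survival, was the most abundant member and, of the 8 that passed with the block, the one with the highest adjusted p-value. It had 137.1, 131.1 and 168.3 FPKM in replicates 1, 2 and 3 of the control cells and 113.8, 123 and 169.2 FPKM in those with NH4Cl. With TGF-β it had 148.6, 135.2 and 182.7 FPKM, and with both 125.3, 122.2 and 170.8 FPKM. The groups overlapped and replicate 3 was highest in each, unlike in NFKBIA, TNFAIP3 and TNFAIP2. The log2 fold change averaged over TGF-β was -0.14 (limma adjusted p = 0.601 without the block and 0.0171 with it; 0.0105 to 0.0512 over the alternatives with the block), and IER3 was lower in 5 of 6 pairs. IER3 shares 359 exon bases on the opposite strand with IER3-AS1 (0.0899 FPKM).

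Same-number pairs of libraries describe the same pattern without a model, though whether numbers 1 and 2 mark pairs was not tested. NFKB1, RELB, NFKBIA, TNFAIP3, BIRC3 and TNFAIP2, 6 of the 10 genes, were lower with NH4Cl in all 6 pairs, against 15.5% of all tested genes. ICAM1, 1 gene, was higher in all 6 pairs, against 15.7% of all genes. NFKBIA differed by -0.56 to -0.45 in the 4 pairs of replicates 1 and 2 and by -0.35 to -0.15 in the 2 pairs of replicate 3. For TNFAIP3 these ranges were -0.79 to -0.58 and -0.52 to -0.48, and for BIRC3 -0.81 to -0.62 and -0.28 to -0.28. The differences of NFKBIA, TNFAIP3, BIRC3 and NFKB1 were thus smaller in both replicate 3 pairs than in any pair of replicates 1 and 2, whereas those of ICAM1, RELB and TNFAIP2 overlapped between them.

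**Figure D3:**
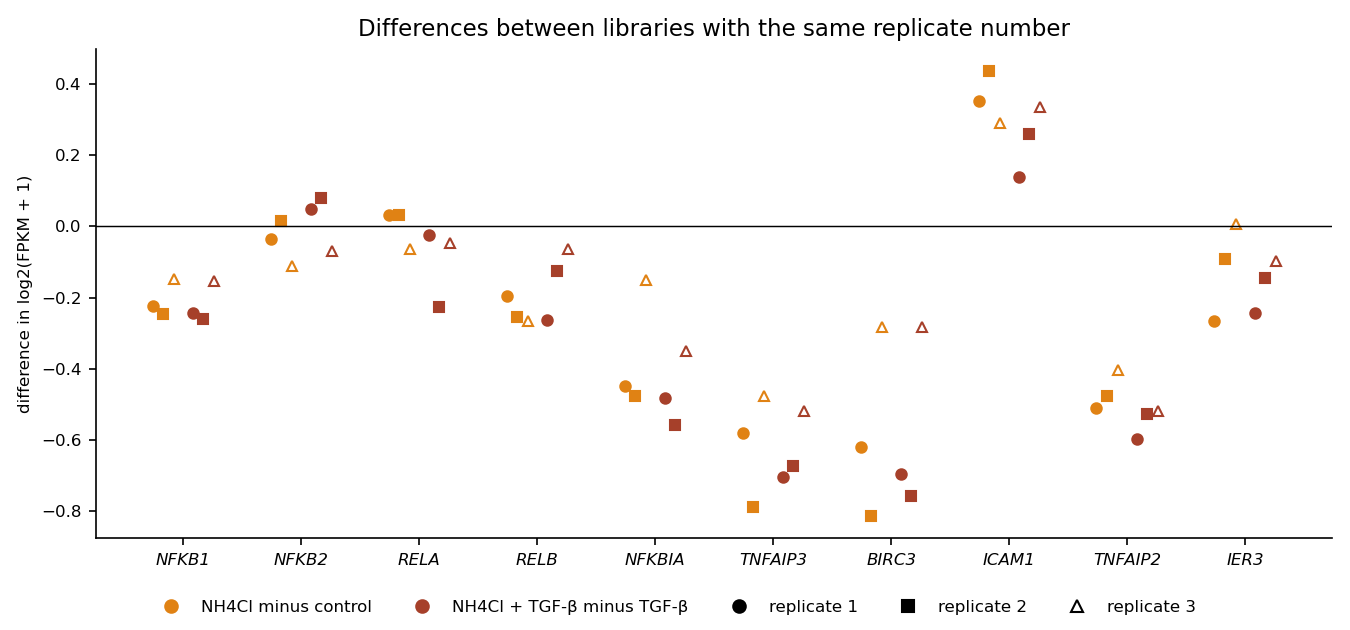
Difference in log2(FPKM + 1) (vertical axis) between libraries with the same replicate number, NH4Cl minus control and both treatments minus TGF-β, for each gene (horizontal axis), with the replicate number as the symbol. All 6 points of NFKB1, RELB, NFKBIA, TNFAIP3, BIRC3 and TNFAIP2 lie under 0 and all 6 of ICAM1 above it.

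Against control, NH4Cl alone gave estimates of -0.62 for TNFAIP3, -0.57 for BIRC3, -0.46 for TNFAIP2, -0.36 for NFKBIA, -0.24 for RELB, -0.21 for NFKB1 and 0.36 for ICAM1. Each was lower, and ICAM1 higher, in 3 of 3 pairs. In the limma model without the block 0 of the 10 genes passed, against 0.381% of all genes, and 5 had an unadjusted p-value under 0.05 (BIRC3, ICAM1, RELB, TNFAIP3 and TNFAIP2), as did 10.8% of all genes. With the block all 7 passed, against 13.6% of all genes, 6 of them lower (6.14% of all genes) and 1 higher (7.42%). With the block NFKB1 missed the threshold when control replicate 1 or 2 was left out and without replicate 2 of the NH4Cl-treated cells, and RELB missed it without replicate 2 of the control cells. The limma adjusted p-values of the 7 genes with the block ran from 0.000122 for TNFAIP2 to 0.00987 for NFKB1, and over the alternatives with the block that of NFKB1 ran from 0.00649 to 0.0566.

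In cells that also had TGF-β, NH4Cl gave estimates of -0.63 for TNFAIP3, -0.58 for BIRC3, -0.55 for TNFAIP2, -0.46 for NFKBIA, -0.22 for NFKB1, -0.15 for RELB and 0.24 for ICAM1. Each was lower, and ICAM1 higher, in 3 of 3 pairs. In the limma model without the block 0 of the 10 genes passed, against 1.03% of all genes, and 4 had an unadjusted p-value under 0.05 (BIRC3, ICAM1, TNFAIP3 and TNFAIP2), as did 13.3% of all genes. When replicate 3 was left out of the TGF-β group, BIRC3 passed in that model. With the block 7 genes passed, against 18.8% of all genes, 6 of them lower (8.48% of all genes) and 1 higher (10.3%). RELB passed with a limma adjusted p-value of 0.0483 (0.0165 to 0.170 over the alternatives with the block) and missed the threshold in 5 of the 6 fits with the block that left out 1 library, all but that without replicate 3 of the cells with both. It also missed it with the block and either scaling to the same FPKM sum or a pseudocount of 0.1. ICAM1 passed in 9 of the 11 alternatives with the block (limma adjusted p = 0.00892 to 0.0843), all but replicates 1 and 2 only and the fit without replicate 2 of the cells with both. In replicates 1 and 2 only it did not pass without the block either. IER3 had an estimate of -0.16 and a limma adjusted p-value of 0.0559 with the block, and was lower in 3 of 3 pairs.

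Cells with both treatments were also compared with control cells. In the limma model without the block 0 of the 10 genes passed, against 0.948% of all genes, and 4 had an unadjusted p-value under 0.05, as did 13.1% of all genes. With the block 7 passed, against 18.4% of all genes, namely BIRC3, NFKBIA, RELB, NFKB1, TNFAIP3 and TNFAIP2 lower and ICAM1 higher. Estimates ran from -0.60 for BIRC3 to 0.33 for ICAM1. RELB missed the threshold in 5 of the 6 fits with the block that left out 1 library, and with the block and scaling to the same FPKM sum.

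With TGF-β for 1 h the estimates against control ran from -0.06 for NFKB1 to 0.12 for NFKBIA. By limma 0 of the 10 genes passed, against 0% of all genes without the block and 0.00810% with it, and 0 had an unadjusted p-value under 0.05 in either model (0.835% and 3.42% of all genes). In NH4Cl-treated cells the TGF-β estimates ran from -0.07 for NFKB1 to 0.12 for NFKB2. By limma 0 of the 10 genes passed in that comparison, against 0% of all genes without the block and 0.00810% with it. At an unadjusted p-value under 0.05 the counts were 0 without the block and 1 with it, NFKB2 (limma adjusted p = 0.660), against 1.34% and 7.12% of all genes. Over both NH4Cl states, NFKB2 was higher with TGF-β in 6 of 6 pairs and NFKB1 lower in 6 of 6, against 2.24% and 1.47% of all genes.

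The interaction asks whether the NH4Cl effect differed with TGF-β. Its estimates ran from -0.12 for ICAM1 to 0.09 for RELB. By limma 0 of the 10 genes passed, against 0% of all genes with or without the block, and 0 had an unadjusted p-value under 0.05 in either model (0.932% of all genes without the block and 4.35% with it). The lowest adjusted p-value with the block was 0.992. With the block the same 7 genes passed with NH4Cl against control and with both treatments against TGF-β, and their calls differed only in some alternatives.

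Over the 12 libraries, which share 4 groups, the members were correlated after the mean of each replicate number was subtracted. TNFAIP3 had a Pearson r of 0.979 with TNFAIP2, 0.977 with NFKBIA and 0.965 with BIRC3. ICAM1 ran opposite to them, with an r of -0.91 with TNFAIP3 and -0.86 with NFKBIA. NFKB2 had r between -0.25 (NFKB1) and 0.26 (RELB) with the other members. These values describe the libraries and were not tested.

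Among all tested genes, those most like NFKBIA by this measure were NET1 (r = 0.993), C2 (0.988), which encodes a complement component, and GNAI2 (0.982). Those most like BIRC3 were MYB (0.989), EIF4G2 (0.988) and MYCL (0.988). For RELA they were HOXC9 (0.950), ZNF721 (0.933) and MYADM (0.877). Without subtracting the replicate means, 2 of the 3 genes for BIRC3 were again among the 3 most like it, and 0 of the 3 for NFKBIA and for RELA.

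Genes elsewhere in the pathway were taken from lists by role, 83 genes in all, of which 67 passed the filter. The lists were chosen with earlier results of these data known, so their counts are not independent of the data. With NH4Cl averaged over TGF-β, 21 of the 67 were lower and 5 higher with the block, against 15.0% and 16.1% of all tested genes. Without the block 5 passed in limma (MYD88, BCL2L1, CXCL1, CXCL3 and CXCL8), each of them lower, against 6.14% of all tested genes in either direction and 2.40% lower. The median log2 fold change of the 67 genes was -0.07, against -0.0006 for all tested genes, of which single genes had 5th and 95th percentiles of -0.23 and 0.28. The 6 targets and feedback inhibitors had a median of -0.46 and the 4 subunits of -0.12. No conclusion about a list was drawn from a median.

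**Figure D4:**
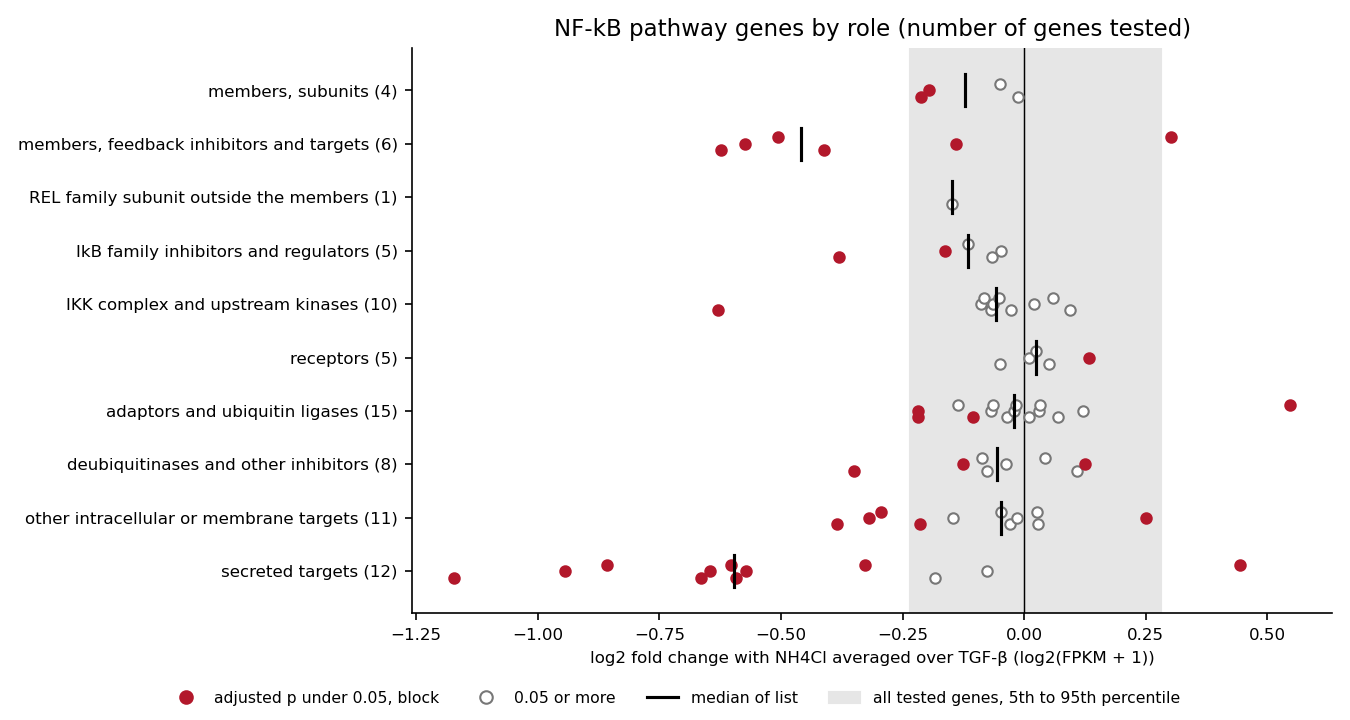
Log2 fold change with NH4Cl averaged over TGF-β (horizontal axis) for every tested gene of each list (1 point a gene), with the list's median as a bar and the 5th to 95th percentile of single tested genes as a grey band, which is not a range for medians; filled points passed with the block. The medians run from -0.60 for secreted targets and -0.46 for the 6 feedback inhibitors and targets to 0.02 for receptors.

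Shares of all tested genes given for the lists are for NH4Cl averaged over TGF-β with the block. REL, the subunit outside the members, had an estimate of -0.15 (limma adjusted p = 0.222 without the block and 0.0931 with it) and was lower in 5 of 6 pairs. Of the 10 genes for the IKK complex and upstream kinases 1 passed with the block, IKBKE, against 31.0% of all tested genes, and the list's median was -0.06. The core kinase genes CHUK and IKBKB and the scaffold gene IKBKG had estimates of 0.09, -0.07 and 0.02 and did not pass, and IKBKG has a near-identical pseudogene, so its value is uncertain. IKBKE (ENSG00000263528; chromosome 1, 206470476 to 206496889, plus strand) encodes an IKK-related kinase that is itself described as inducible by NF-kB. It had 12.2, 12.1 and 7.81 FPKM in replicates 1, 2 and 3 of the control cells and 7.71, 7.56 and 4.69 FPKM in those with NH4Cl. TGF-β alone gave 12.1, 11.7 and 8.002 FPKM, and with both 7.10, 7.40 and 4.75 FPKM. The groups did not overlap, and the log2 fold change was -0.63, lower in 6 of 6 pairs (limma adjusted p = 0.0501 without the block and 1.31e-06 with it).

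Receptors and adaptors had calls in both directions. Of 12 receptor genes 5 passed the filter, and with the block 1 passed, TNFRSF10B, which was higher at 0.13, against 31.0% of all tested genes. Of the 15 adaptors and ubiquitin ligases 3 were lower with the block, MYD88 at -0.22, TRAF3 at -0.22 and TRAF2 at -0.11, and 1 was higher, RBCK1 at 0.55, against 15.0% and 16.1% of all tested genes. MYD88, the adaptor of Toll-like and interleukin receptors, also passed without the block (limma adjusted p = 0.0241) and was lower in 6 of 6 pairs. RBCK1, which encodes a subunit of the linear ubiquitin ligase, had 65.6, 60.3 and 129.0 FPKM in replicates 1, 2 and 3 of the control cells and 91.8, 94.3 and 165.4 FPKM in those with NH4Cl. Replicate 3 was highest in both groups, which therefore overlapped, and RBCK1 was higher with NH4Cl in 6 of 6 pairs (limma adjusted p = 0.316 without the block and 2.28e-05 with it).

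Among other inhibitors, 2 of the 5 genes of the IkB family outside NFKBIA passed with the block, NFKBIZ at -0.38 and NFKBIB at -0.16, each lower in 6 of 6 pairs, against 31.0% of all tested genes. NFKBIE, which encodes another cytoplasmic IkB protein, had an estimate of -0.05 and did not pass. Of 8 deubiquitinases and other inhibitors 2 were lower with the block, ZC3H12A at -0.35 and TNIP1 at -0.13, and 1 was higher, OTULIN at 0.13 (15.0% and 16.1% of all tested genes). ZC3H12A encodes a ribonuclease that degrades cytokine messages and TNIP1 a partner of the TNFAIP3 protein. In the limma model without the block 0 of these 5 genes passed, and 1 of them, ZC3H12A, had an unadjusted p-value under 0.05, as did 20.9% of all genes.

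Targets that stay in the cell or its membrane were mixed. Of 14 genes 11 passed the filter, and 4 were lower with the block, CD83 at -0.38, SDC4 at -0.32, BCL2L1 at -0.29 and IRF1 at -0.21, while 1 was higher, EFNA1 at 0.25 (15.0% and 16.1% of all tested genes). BCL2L1, a survival gene of the BCL2 family, passed without the block as well. It had 77.9, 72.8 and 84.0 FPKM in replicates 1, 2 and 3 of the control cells and 60.8, 59.2 and 69.7 FPKM in those with NH4Cl, without overlap, and was lower in 6 of 6 pairs (limma adjusted p = 0.0283 without the block and 1.83e-05 with it).

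Secreted targets held the largest estimates of the lists with NH4Cl averaged over TGF-β, lists that were chosen with earlier results of these data known. Of 18 genes 12 passed the filter, and 9 were lower and 1 higher with the block (15.0% and 16.1% of all tested genes), with a median of -0.60. The largest were the chemokine genes CCL20 at -1.17, CXCL1 at -0.94 and CXCL3 at -0.86, each lower in 6 of 6 pairs. LIF, an interleukin-6 family cytokine gene, was the one that was higher, at 0.44, in 6 of 6 pairs. CXCL1, CXCL3 and CXCL8 passed without the block. CXCL3 (ENSG00000163734; chromosome 4, 74036589 to 74038807, minus strand) had 20.3, 20.6 and 13.2 FPKM in replicates 1, 2 and 3 of the control cells and 10.3, 10.2 and 8.14 FPKM in those with NH4Cl. The groups did not overlap (limma adjusted p = 0.0106 without the block and 3.49e-06 with it). CXCL8 had 60.6, 60.3 and 45.0 FPKM in the control cells and 31.8, 33.0 and 43.0 FPKM with NH4Cl, without overlap, and its log2 fold change averaged over TGF-β was -0.60 (limma adjusted p = 0.0173 without the block and 0.00387 with it), lower in 6 of 6 pairs. With TGF-β CXCL8 had 60.5, 56.3 and 40.9 FPKM, and with both 35.2, 30.9 and 36.1 FPKM, so that its differences in replicate 3 were smaller than those in replicates 1 and 2.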

How the data were processed

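Bulk RNA sequencing of HCT116 cells was analysed in 4 groups of 3 libraries, assigned by the sample labels, while doses and times are those of the paper's methods. The values the authors deposited are FPKM for 25733 genes and 12 libraries, and all per-sample columns were used. The submitters' processing notes name Trimmomatic 0.36, STAR 2.5.2b, featureCounts from Subread 1.5.2 and DESeq2, with the GRCh38 build, whereas the paper's methods name HTSeq for the counting. For RNA extraction, the RNeasy Plus Mini kit is in the labels and the PureLink kit in the paper's methods. The authors compared the conditions with DESeq2, which needs counts and was run here neither on FPKM nor on the recovered reads.

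Gene identifiers were matched to GENCODE release 29 (25733 of 25733 found). FPKM times exon length, divided by a step fitted in each library from its smallest values up, gave reads on genes, within 0.05 of a whole number for 100.0% of values in every library, 14807630 to 18191998 reads with a median of 15484798. Genes had to reach a mean FPKM of 1 (12341 did), and their values entered as log2(FPKM + 1). Using limma 3.58.1 (R 4.3.3), a model of 4 group means was fitted with an intensity trend and two-sided moderated tests, and 7 comparisons were taken from it. P-values were adjusted by Benjamini-Hochberg over all tested genes and called under 0.05, and only the values of the members and of the pathway lists are printed. The code was tested on simulated data.

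Deviations from group means were correlated within the 18 same-number pairs, at 0.349 to 0.774, all over 0.1. The pairing was taken from these correlations, since the labels give numbers only, and a second fit added a block for the replicate number. The members, the pathway lists and the marker lists were chosen with earlier results of these data known. Of each pathway list, the 3 genes with the largest change with NH4Cl averaged over TGF-β among those called with the block were named, with every gene behind a count of 5 or fewer and a few core genes (REL, CHUK, IKBKB, IKBKG, NFKBIB, NFKBIE, CXCL8, CXCL1 and CCL20). The 3 genes most like NFKBIA, BIRC3 and RELA were those with the highest Pearson correlation over 12 libraries.

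Alternatives were a pseudocount of 0.1, no filter, a stricter mean FPKM of 5, scaling to the same FPKM sum, median centring, no intensity trend, only the compared groups in the fit, replicates 1 and 2 only, the block (also with the scalings and the pseudocount), and each library left out in turn with and without the block. The block in replicates 1 and 2 only was chosen after seeing the data. Promoters came from RefSeq (GRCh38.p14), and the kappaB consensus, 10 bases long, was searched in 250 bases before each start. Protein sequences were not analysed here. Python 3.11.15, numpy 2.4.6, pandas 2.3.3 and matplotlib 3.10.9 were used for the other steps and the plots.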

Additional observations from a re-analysis of the deposited data

How the results depend on the processing

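Without the replicate block, the number of the 10 genes past the threshold with NH4Cl averaged over TGF-β (4, against 6.14% of all tested genes) was 0 with scaling to the same FPKM sum (3.96%), 2 with median centring (5.76%), 2 with no filter (2.14%), 3 with no intensity trend (5.98%) and 4 with a pseudocount of 0.1 (6.09%) or a mean FPKM of at least 5 (6.87%). With the block it was 8 (31.0% of all tested genes), also together with scaling (29.2%), median centring (31.7%) or a pseudocount of 0.1 (30.7%), and 8 in replicates 1 and 2 only, with the block (26.0%) or without it (26.6%). With NH4Cl against control (0 without the block) it was 7 with the block, also together with scaling, median centring or a pseudocount of 0.1, and 7 in replicates 1 and 2 only, with or without the block, against 9.29% to 13.6% of all tested genes. With both treatments against TGF-β (0) it was 7 with the block (18.8%), 6 with the block and scaling (16.7%), 8 with the block and median centring (19.2%), 6 with the block and a pseudocount of 0.1 (18.6%), 5 in replicates 1 and 2 only (14.1%, without ICAM1 and RELB) and 6 there with the block (13.4%, without ICAM1). With both against control (0) it was 7 with the block (18.4%), 6 with the block and scaling (16.7%), 7 with the block and median centring (18.7%) or a pseudocount of 0.1 (18.3%), and 7 in replicates 1 and 2 only, with the block (13.0%) or without it (13.2%). With 1 library left out the block gave 5 to 7 of the 10 genes with NH4Cl against control, and over both models the counts ranged from 2 to 8 with NH4Cl averaged over TGF-β (2.79% to 28.8%), and from 0 to 7 with NH4Cl against control (0% to 11.3%), with both against TGF-β (0.0243% to 14.6%) and with both against control (0.0162% to 13.9%). With TGF-β against control, both against NH4Cl and the interaction, the count was 0 under every alternative run, against 0% to 0.0162% of all tested genes. The cause was not tested.

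Adding the block raised the share of all tested genes past the threshold from 0.381% to 13.6% with NH4Cl against control. The share rose from 1.03% to 18.8% with both treatments against TGF-β and from 6.14% to 31.0% with NH4Cl averaged over TGF-β. The following counts of members stand beside that rise and come from fits that share libraries. Of 860 log2 fold changes of members under alternatives, taken over NH4Cl against control, both treatments against TGF-β and NH4Cl averaged over TGF-β, 577 kept direction and side of the threshold, 226 passed where the model without the block did not, 29 no longer passed and 28 changed sign. All 28 in these 3 comparisons belong to NFKB2 and RELA and 0 of them passed in limma. With NH4Cl against control, that of RELA was 0.0001 with a pseudocount of 0.1, 0.0039 with scaling to the same FPKM sum (each with or without the block) and 0.0317 in replicates 1 and 2 only (with or without the block), and -0.0685 to 0.1002 with 1 library left out. That of NFKB2 with NH4Cl averaged over TGF-β was 0.0263 in replicates 1 and 2 only (with or without the block) and -0.0542 to 0.0504 with 1 library left out. With 1 library left out, that of NFKB2 was -0.1025 to 0.0478 with NH4Cl against control and -0.0639 to 0.1453 with both against TGF-β, and that of RELA averaged over TGF-β was -0.1087 to 0.0004. The block did not change the call of NFKB2 or RELA in any comparison. Scaling to the same FPKM sum left 489 of 12341 genes past the threshold with NH4Cl averaged over TGF-β, 367 of them higher, against 758 with 462 higher without it, and no filter left 550 of 25733. The kappaB consensus was found for 5 genes on both strands and for 2 on the forward strand alone.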
